A study of Mus musculus with 4 samples.

Results

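The junctions and transporters of the blood-brain barrier were followed through single-nucleus RNA sequencing of mouse forebrain after permanent middle cerebral artery occlusion (MCAO), as 9 genes picked by symbol. They were the tight junction genes Cldn5, Ocln and Tjp1, the endothelial adhesion gene Pecam1, the efflux pumps Abcb1a and Abcg2, and the carriers Slco1a4, Slc7a5 and Mfsd2a, out of 46983 genes counted. All 9 were measured in every library, each under 1 gene identifier. The study compared 4 groups of 3-month-old male C57Black/6 mice, a sham control and 3 groups sampled on day 1, day 3 or day 7 after MCAO, a stroke model in which the vessel is closed for good. Each group was 1 library of nuclei from 3 forebrain hemispheres pooled during isolation. No difference here therefore has a replicate check, no test across animals was possible, and every interval is an exact 95% interval that covers counting error only. The condition label of the control library is sham control, while the study's description of the surgery names intact cortical tissue as the control. It is therefore not settled here whether the control mice were operated, and sham control below means the library with that label. The libraries themselves are described as forebrain hemispheres, not cortex.

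The blood-brain barrier is the property of brain endothelial cells that keeps blood solutes, drugs and leukocytes out of the tissue. Tight junction proteins seal the cleft between neighbouring endothelial cells, and scaffold proteins tie them to the cytoskeleton. Because the cells are sealed and form few vesicles, nutrients must cross through dedicated carriers, and ATP-driven pumps return lipophilic compounds to the blood. Pericytes and astrocyte endfeet surround the vessel and help to maintain this state, which is known to weaken after ischemia.

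Several features of the libraries bear on what follows. Total depth ranged from 23285489 to 42963698 UMIs per library, where a UMI (unique molecular identifier) stands for 1 captured molecule. Between 1018 and 3068 nuclei per library were kept, with a median of 5442 to 11029.5 UMIs a nucleus, the deepest on day 1. At most 3 barcodes of nuclei were shared by any pair of libraries. The study's own numbers of nuclei by time point fitted the deposited libraries only when day 3 and day 7 were exchanged, a comparison of those numbers alone. The deposited labels were kept, so day 3 and day 7 below mean the libraries that carry those labels, and no trend over time was drawn from their order. Where ratios are listed by day, they are of each day's library to sham control.

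Nuclei were clustered without the barrier genes, and clusters were named from separate marker genes. The endothelial-like cluster held 140 of 7769 nuclei. There were 38 in sham control (1.80% of its nuclei, 1.27% to 2.46%) and 6 on day 1 (0.589%, 0.217% to 1.28%). There were 75 in the library labelled day 3 (2.44%, 1.93% to 3.06%) and 21 in that labelled day 7 (1.34%, 0.830% to 2.04%). All 18 endothelial markers were found in 3 libraries and 17 on day 1. Their summed level was 17874, 22044, 15270.1 and 18690.3 CPM, the field's unit for UMIs of a gene scaled by all UMIs of the class, in the order sham control, day 1, day 3 and day 7. Markers of other cells were present as well. The 17 mural markers summed to 6662, 3474, 3387 and 6153 CPM, with 14, 6, 16 and 15 of them detected and Cnn1 at 0 in every library. The 10 general neuronal markers summed to 1617, 984, 5356 and 1295 CPM, highest in the library labelled day 3, where 5 of the 75 nuclei carried more neuronal than endothelial marker UMIs. The 17 microglial markers summed to 114, 369, 322 and 563 CPM. The 14 astrocyte markers summed to 2404, 707, 908 and 1951 CPM, and the 14 fibroblast markers to at most 285 CPM. Their part in the results was not tested, beyond repeating the counts without nuclei rich in them. Day 1 rests on 6 nuclei throughout, and for 7 of the 9 genes a single nucleus held over 40% of the gene's day 1 UMIs.

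The promoter stretch before the start site is shown for 3 genes, Cldn5 and Slco1a4, which proved the most restricted to endothelial-like nuclei, and Mfsd2a, which proved the least restricted of the transporters. Each run gives the 250 bases before the RefSeq start site (RefSeq sequence, GRCm38.p6), 5′ to 3′ along the gene's own strand. Capitals mark exact matches, on either strand, to 3 short motifs linked to endothelial regulators: CGGAAG for the ETS family, AACAAT for the SOX family and CTTTGA for TCF/LEF, the nuclear arm of Wnt signalling.
Cldn5, chr16:18776597-18776846, forward strand: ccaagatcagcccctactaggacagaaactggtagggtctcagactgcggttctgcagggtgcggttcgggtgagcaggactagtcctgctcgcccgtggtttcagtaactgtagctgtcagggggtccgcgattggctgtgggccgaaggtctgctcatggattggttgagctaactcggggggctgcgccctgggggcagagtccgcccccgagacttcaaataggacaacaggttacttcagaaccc
Slco1a4, chr6:141856221-141856470, reverse strand: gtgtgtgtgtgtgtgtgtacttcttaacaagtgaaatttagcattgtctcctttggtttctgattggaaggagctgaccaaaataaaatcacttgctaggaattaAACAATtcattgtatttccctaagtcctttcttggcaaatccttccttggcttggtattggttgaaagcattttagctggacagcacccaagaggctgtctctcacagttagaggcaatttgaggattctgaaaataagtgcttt
Mfsd2a, chr4:122961189-122961438, reverse strand: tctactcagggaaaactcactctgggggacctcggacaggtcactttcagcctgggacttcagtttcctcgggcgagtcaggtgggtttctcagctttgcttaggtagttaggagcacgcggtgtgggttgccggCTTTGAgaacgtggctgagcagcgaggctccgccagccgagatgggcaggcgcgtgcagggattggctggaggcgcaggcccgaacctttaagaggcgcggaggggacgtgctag
Slco1a4 held 1 SOX match, starting 145 bases before the start site, Mfsd2a held 1 TCF/LEF match, starting 115 bases before it, and Cldn5 held none of the 3. The bases just after the RefSeq start were found in a GENCODE transcript of Cldn5 and of Mfsd2a but not of Slco1a4. Such matches are common, since 13.7%, 9.35% and 13.9% of 32536 promoter windows of this length held the ETS, SOX and TCF/LEF letters, so they are a description of the sequence and not of binding. Windows were at hand for 7 of the 9 genes, without Pecam1 and Slc7a5.

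All 9 genes were higher in endothelial-like nuclei than in all other named nuclei together, in each of the 4 libraries, but the margin differed widely between them. A gene was called higher or lower when its ratio passed 1.5-fold and its interval left out 1, among genes with at least 10 UMIs over both sums. By that rule 9 of 9 were called higher in every library, against 18.2% of all genes tested in sham control, 10.6% on day 1, 24.3% in the library labelled day 3 and 18.8% in that labelled day 7. The median log2 ratio of the 9 was 6.73, 6.55, 6.37 and 6.28 in these libraries. That of all genes tested was 1.40, 2.86, 0.77 and 1.44, a figure raised by genes whose few endothelial UMIs were set to 3. Nuclei were sorted into classes on the same counts, so these ratios describe where the genes lie and test nothing.

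**Figure D1:**
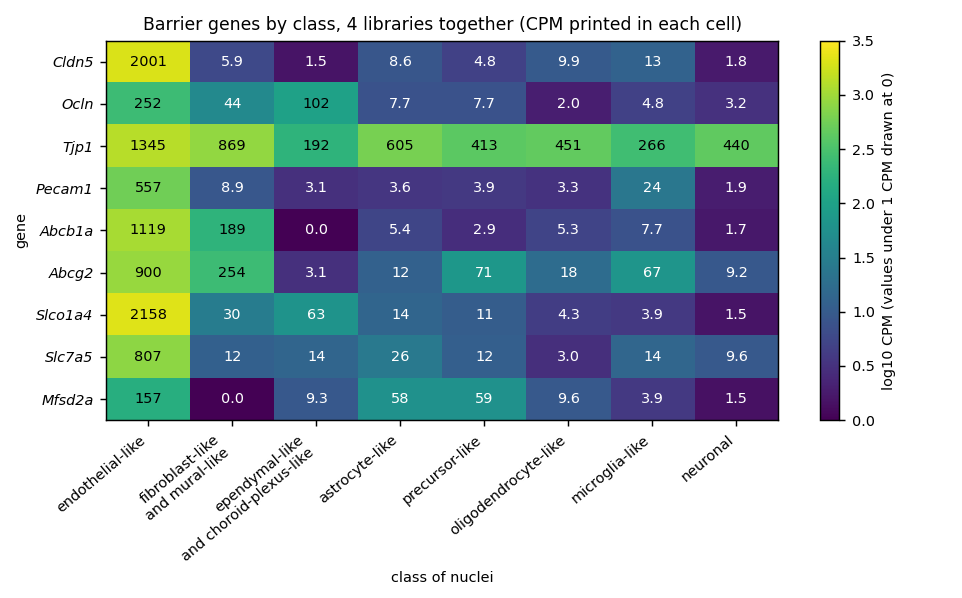
Level of the 9 genes in 8 classes of nuclei with the 4 libraries added together, printed as CPM in each cell and coloured by log10 CPM. Levels are read along a row and not between genes. Every gene has its highest cell in the endothelial-like column, and only Tjp1 stays at 192 CPM or more in every class drawn.

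Among the tight junction genes, Cldn5 (ENSMUSG00000041378.1, chr16:18776847-18778262, forward strand), the claudin that closes the cleft to small solutes, was nearly confined to these nuclei. With the libraries added together it stood at 2001 CPM (1902 to 2104) there, while no other class exceeded 12.5 CPM (6.67 to 21.4), and 89.9% of its UMIs lay in a class that held 1.19% of all UMIs. The classes below the top did not differ from their neighbours in rank beyond counting error. Ocln (ENSMUSG00000021638.12, chr13:100496507-100552718, reverse strand), a membrane protein of the tight junction strand, had 252 CPM (217 to 290.3) in endothelial-like nuclei and 102 CPM (78.9 to 129.8) in the cluster of mixed ependymal-like and choroid-plexus-like nuclei, a ratio of 2.47-fold (1.86 to 3.32). Choroid plexus epithelium is itself joined by tight junctions. Tjp1 (ENSMUSG00000030516.14, chr7:65296165-65527781, reverse strand) encodes the scaffold protein ZO-1, which also sits at junctions of other cells, and was found in every class. It was 1345 CPM (1264 to 1431) in endothelial-like nuclei, 869 CPM (773 to 974) in mixed fibroblast-like and mural-like nuclei, 605 CPM (573 to 638) in astrocyte-like and 439.6 CPM (434 to 445) in neuronal nuclei. Neuronal nuclei held 82.0% of its UMIs and 84.0% of all UMIs. The libraries differed in the order of these classes. In that labelled day 7 Tjp1 was 1681 CPM (1373 to 2036) in the 18 mixed fibroblast-like and mural-like nuclei, above 1141 CPM (965 to 1341) in endothelial-like nuclei, and on day 1 the 2 classes were at 944 and 984 CPM. Its ratio of endothelial-like to other named nuclei was 2.32 to 3.26 over the 4 libraries, against 424 to 4806 for Cldn5. The Tjp1 interval in the annotation contains 3 provisional or pseudogene entries, and since the strand of counting was not stated its count may include them.

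Pecam1 (ENSMUSG00000020717.19, chr11:106654217-106750628, reverse strand), an adhesion molecule of endothelial borders that some blood cells also carry, stood at 557 CPM (505 to 612) in endothelial-like nuclei and came next in microglia-like nuclei with 24.1 CPM (15.6 to 35.6), a ratio of 23.1-fold (15.4 to 36.1). The efflux pumps had a second, lower level in the mixed fibroblast-like and mural-like nuclei. Abcb1a (ENSMUSG00000040584.8, chr5:8660077-8748575, forward strand), which encodes P-glycoprotein, was 1119 CPM (1045 to 1196) in endothelial-like nuclei and 189 CPM (146 to 242) in mixed fibroblast-like and mural-like nuclei. Abcg2 (ENSMUSG00000029802.13, chr6:58584523-58695676, forward strand), the breast cancer resistance protein that works beside it, was 899.6 CPM (833 to 969.8) and 254 CPM (203 to 314) in these classes, and 71.3 CPM (56.0 to 89.5) in oligodendrocyte-precursor-like nuclei. Precursor-like nuclei and the classes next to them in rank did not differ beyond counting error down to microglia-like nuclei at 66.5 CPM (51.8 to 84.2), which stood above oligodendrocyte-like nuclei at 17.5 CPM (13.1 to 22.9). Abcb1a has a close paralog, Abcb1b, with which reads may be shared, and its interval overlaps 2 provisional genes.

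The carriers were spread over classes in separate ways. Slco1a4 (ENSMUSG00000030237.14, chr6:141805440-141856199, reverse strand), an exchanger of organic anions that belongs to a family of near copies on the same chromosome, was 2158 CPM (2055 to 2265) in endothelial-like nuclei and 63.4 CPM (45.5 to 86.0) in mixed ependymal-like and choroid-plexus-like nuclei, and 88.2% of its UMIs were endothelial-like. Slc7a5 (ENSMUSG00000040010.10, chr8:121881150-121907694, reverse strand), the carrier of large neutral amino acids, was 807 CPM (745 to 874) against 25.8 CPM (19.5 to 33.4) in astrocyte-like nuclei. Neuronal nuclei, at 9.57 CPM (8.76 to 10.4), held 41.0% of its UMIs, against 84.0% of all UMIs. A protein-coding gene on the opposite strand, Gm20388, overlaps Slc7a5, so its count is uncertain in the same way. Mfsd2a (ENSMUSG00000028655.11, chr4:122946850-122961188, reverse strand), which brings docosahexaenoic acid into the brain and holds back vesicle traffic, was 157 CPM (130 to 188) in endothelial-like nuclei, 58.8 CPM (45.0 to 75.5) in precursor-like and 58.3 CPM (48.7 to 69.3) in astrocyte-like nuclei. The latter pair did not differ beyond counting error, and astrocyte-like nuclei stood above oligodendrocyte-like nuclei at 9.59 CPM (6.42 to 13.8). Astrocyte-like nuclei held 29.5% and endothelial-like nuclei 27.2% of the Mfsd2a UMIs, against 3.46% and 1.19% of all UMIs.

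The genes were also counted by nucleus rather than by UMI. Neuronal nuclei, which should lack most of these genes and so gauge free RNA, had a median of 8545 UMIs in sham control and 14252 on day 1, against 2408 and 4276 in endothelial-like nuclei, so each nucleus was thinned to 1000 UMIs, which left none out. In sham control Cldn5 was then found in 73.7% (56.9% to 86.6%) of endothelial-like and 0.215% (0.0440% to 0.626%) of neuronal nuclei, where the unthinned shares were 94.7% and 1.79%. Slco1a4 was found in 92.1% (78.6% to 98.3%) and 0.0720% (0.00200% to 0.398%) of these. Tjp1 was found in 73.7% (56.9% to 86.6%) and 33.5% (31.0% to 36.0%), the only gene of the 9 with a sizeable neuronal share. Of the 9 genes, a thinned endothelial-like nucleus showed a median of 5 in sham control, 4.5 on day 1, 5 in the library labelled day 3 and 5 in that labelled day 7, and a thinned neuronal nucleus a median of 0 in all 4. At full depth the endothelial-like medians were 7.5, 8, 8 and 7. Across libraries the thinned endothelial-like share moved between 57.1% to 76.3% for Abcb1a, 50% to 73.7% for Abcg2 and 13.2% to 38.1% for Ocln, with intervals that overlapped for every pair of libraries.

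**Figure D2:**
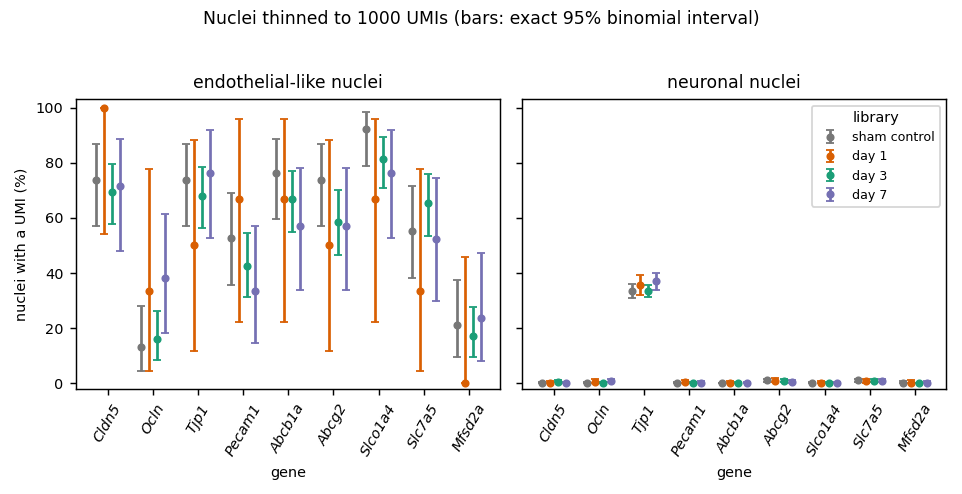
Percent of endothelial-like (left) and neuronal (right) nuclei with at least 1 UMI of each gene after each nucleus was thinned to 1000 UMIs, by library, with exact 95% binomial intervals. Endothelial-like shares lie far above the neuronal ones for all genes but Tjp1, found in 33.4% to 36.9% of neuronal nuclei, and Mfsd2a on day 1, found in 0 of 6 nuclei, which allows a share of up to 45.9%.

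Within endothelial-like nuclei, only Cldn5 on day 1 passed the threshold for a call, and its call did not survive every alternative. On day 1, 1 of 9 genes was called higher and 0 lower. Of all genes tested there, 5.5% of 4161 were called higher and 3.27% lower. In the library labelled day 3 and in that labelled day 7 no gene of the 9 was called in either direction. The background was 6.05% higher and 4.52% lower among 9007 genes for the former, and 3.64% and 4.38% among 5747 for the latter. The median log2 ratio of the 9 was 0.24, -0.38 and -0.24 on day 1 and in the libraries labelled day 3 and day 7, beside 0.23, -0.01 and -0.02 for all genes tested. The 3 comparisons share the sham control library, so a chance high or low value there enters each of them. Assigning each nucleus by its own marker UMIs, a rule that also took in nuclei of neuronal clusters, turned the 3 medians to -1.73, 0.55 and 0.89. It called 8 of the 9 genes lower on day 1, 4 higher in the library labelled day 3 and 7 higher in that labelled day 7. The day 1 median turned to -0.11 under edgeR's TMM scaling, which lowered all day 1 ratios by 0.350 on the log2 scale. When nuclei with more mural and fibroblast marker UMIs than 25% of their endothelial ones were left out, which kept 25, 5, 45 and 10 nuclei, more genes were called lower. With their log2 ratios they were Abcb1a (-0.72), Abcg2 (-0.93), Slco1a4 (-0.62) and Slc7a5 (-0.82) in the library labelled day 3, Tjp1 (-0.89) and Abcg2 (-0.79) on day 1 and Cldn5 (-0.70) and Slc7a5 (-0.65) in that labelled day 7. This exclusion was chosen after seeing the data.

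**Figure D3:**
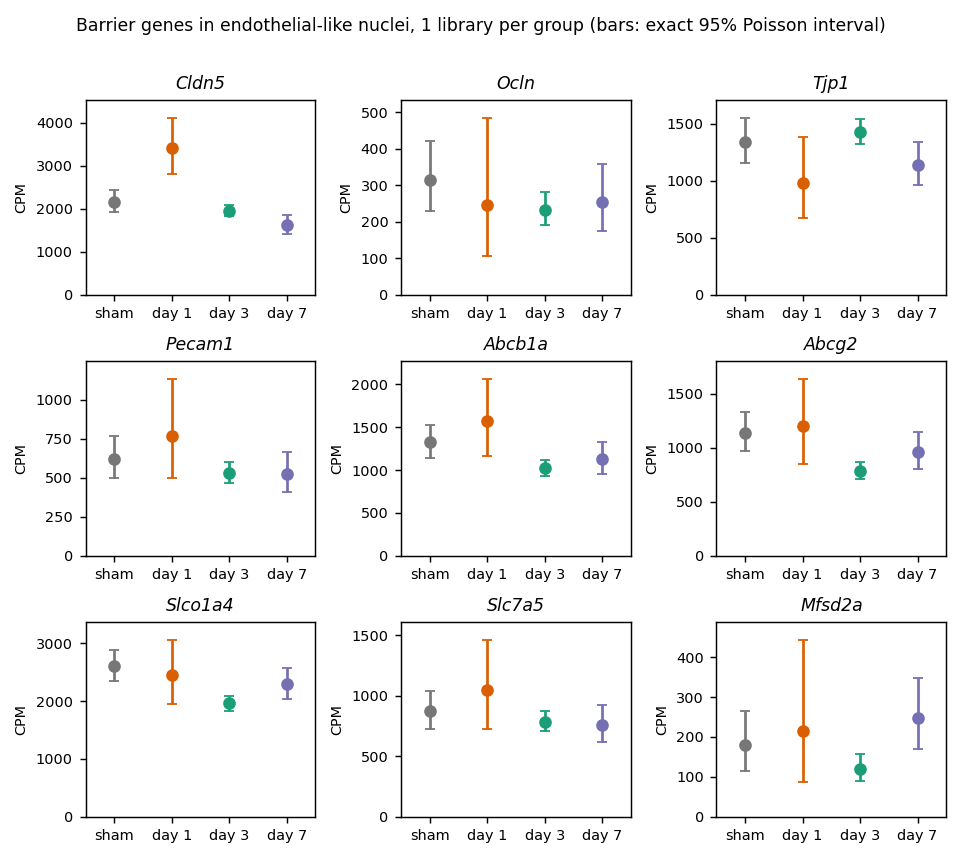
Level (CPM) of each of the 9 genes in endothelial-like nuclei of the 4 libraries, with exact 95% Poisson intervals. Each panel has its own axis from 0, and the day 1 points rest on 6 nuclei. Cldn5 on day 1 stands above the other 3 libraries, while Cldn5 in the library labelled day 7 and Abcb1a, Abcg2 and Slco1a4 in that labelled day 3 lie below the sham control interval.

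Cldn5 in endothelial-like nuclei was 2168 CPM (1931 to 2426) in sham control and 3413 CPM (2807 to 4109.7) on day 1. In the libraries labelled day 3 and day 7 it was 1956 CPM (1829 to 2088) and 1627 CPM (1415 to 1862). These levels rest on 303, 111, 892 and 211 UMIs. The day 1 library was the highest and the library labelled day 7 the lowest. The ratio to sham control was 1.57 (1.25 to 1.963) on day 1, 0.902 (0.791 to 1.03) for day 3 and 0.750 (0.626 to 0.897) for day 7. The day 7 interval left out 1 without reaching 1.5-fold, and sham control and day 3 did not differ beyond counting error. Against day 1 the libraries labelled day 3 and day 7 were at 0.573 (0.470 to 0.705) and 0.477 (0.377 to 0.606), and the latter was 0.832 (0.713 to 0.968) of the former. The day 1 call was lost under TMM scaling, where the log2 ratio fell from 0.65 to 0.30. The per-nucleus assignment turned it to -1.55. It was lost as well when libraries were merged without integration, at 0.54. Under 3 ways of leaving out nuclei with markers of other cells, all chosen after seeing the data, it was 0.58, 0.31 and 0.45, with no call. As a mean over nuclei, which weights each nucleus equally, it was 1.02. Without nuclei in which any other marker list reached the endothelial one, Cldn5 was instead called lower in the library labelled day 7, at -0.62 on the log2 scale.

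Ocln was 315 CPM (229 to 423) in sham control and 246 CPM (106 to 485) on day 1. The library labelled day 3 gave 232 CPM (190.3 to 281) and that labelled day 7 gave 254 CPM (175 to 357). Sham control was the highest, yet no neighbouring pair in the order of the 4 libraries differed beyond counting error. Its ratios were 0.781 (0.318 to 1.68) on day 1, 0.738 (0.515 to 1.07) for day 3 and 0.808 (0.499 to 1.30) for day 7. Tjp1 was 1345 CPM (1159.8 to 1552) in sham control and 984 CPM (673 to 1389) on day 1. By label, day 3 stood at 1429 CPM (1322 to 1544) and day 7 at 1141 CPM (965 to 1341). The library labelled day 3 was the highest and day 1 the lowest. Its ratios of 0.731 (0.486 to 1.07) on day 1, 1.06 (0.902 to 1.26) for day 3 and 0.848 (0.679 to 1.06) for day 7 all had intervals that include 1, though the library labelled day 7 stood at 0.798 times that labelled day 3 (0.663 to 0.956). Day 3 to day 1 by label gave 1.45 (1.02 to 2.14). Under TMM scaling Tjp1 was called lower on day 1, at -0.80 on the log2 scale. A 1.5-fold loss of Tjp1 lies outside the counting interval for the libraries labelled day 3 and day 7. For Ocln it lies inside the interval of every day. These intervals leave out the spread between nuclei. As a mean over nuclei of UMIs per 10000, Tjp1 was 14.8 in sham control and 7.70 on day 1. By label it was 13.9 for day 3 and 9.90 for day 7, so the bound on its loss holds for pooled UMIs only.

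Pecam1, which marks the endothelial border rather than its seal, was 623 CPM (499 to 768) in sham control and 769 CPM (497 to 1135) on day 1. The remaining libraries, labelled day 3 and day 7, were at 531 CPM (466 to 602) and 524 CPM (407 to 665). Its ratios to sham control were 1.23 (0.758 to 1.95) on day 1, 0.852 (0.664 to 1.102) for day 3 and 0.842 (0.604 to 1.17) for day 7, and no neighbours in the order of the 4 levels differed beyond counting error. The endothelial markers, read as a yardstick for the whole class, had summed ratios of 1.23 (1.13 to 1.34), 0.854 (0.816 to 0.895) and 1.05 (0.988 to 1.11) for day 1, day 3 and day 7 by label.

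The efflux pumps and Slco1a4 were the genes whose intervals fell below 1 in the library labelled day 3. Abcb1a was 1324 CPM (1139.9 to 1529) in sham control and 1568 CPM (1167 to 2062) on day 1. In the libraries labelled day 3 and day 7 it was 1019 CPM (929 to 1116) and 1133 CPM (958 to 1332), and its ratios were 1.18 (0.851 to 1.62) on day 1, 0.770 (0.648 to 0.918) for day 3 and 0.856 (0.685 to 1.07) for day 7. Abcg2 was 1138 CPM (968 to 1329) in sham control and 1199 CPM (853 to 1639) on day 1. The library labelled day 3 gave 787 CPM (708 to 873) and that labelled day 7 gave 964 CPM (802 to 1148), with ratios of 1.05 (0.723 to 1.50) on day 1, 0.692 (0.572 to 0.839) for day 3 and 0.847 (0.665 to 1.08) for day 7. For both pumps the library labelled day 3 was the lowest, and for neither did the ratio to sham control reach 1.5-fold. Against day 1, the level in that library was 0.650 (0.486 to 0.886) for Abcb1a and 0.656 (0.471 to 0.939) for Abcg2, both past 1.5-fold but resting on 6 day 1 nuclei. Abcg2 was called lower there when libraries were merged without integration, at -0.65, or doublets were kept, at -0.70 on the log2 scale. The summed endothelial markers of that library are given above, and the neuronal markers in those nuclei were 3.31-fold (2.89 to 3.81) their sham control level. The mural markers there stood at 0.508-fold (0.468 to 0.552). The part of these markers in the result was not tested. Both pumps were called lower under the strict exclusion of mural and fibroblast markers given above. Without nuclei in which any other marker list reached the endothelial one, the log2 ratio of Abcg2 was -0.52 and that of Abcb1a -0.46, beside -0.53 and -0.38 with them.

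Slco1a4 was 2605 CPM (2344 to 2886) in sham control and 2459.6 CPM (1950.3 to 3061) on day 1. By label, day 3 stood at 1962 CPM (1836 to 2095) and day 7 at 2290 CPM (2037 to 2566). Sham control was the highest. Its ratios were 0.944 (0.732 to 1.21) on day 1, 0.753 (0.666 to 0.853) for day 3 and 0.879 (0.752 to 1.03) for day 7. A loss as large as 1.5-fold lies at the edge of the day 3 interval and outside those of day 1 and day 7. These intervals cover counting error of pooled UMIs only, and day 1 rests on 6 nuclei. As a mean over nuclei of UMIs per 10000, Slco1a4 was 27.6 in sham control and 19.6 on day 1. By label that mean was 24.9 for day 3 and 23.6 for day 7. After thinning, 4 of the 6 day 1 nuclei held a UMI of it. In CPM, day 7 by label stood at 1.17 (1.02 to 1.33) times that labelled day 3. Slc7a5 was 873 CPM (725 to 1042) in sham control and 1045 CPM (724 to 1461) on day 1. The remaining libraries, labelled day 3 and day 7, were at 785 CPM (706 to 871) and 756 CPM (613 to 921), and its ratios of 1.20 (0.794 to 1.76) on day 1, 0.899 (0.730 to 1.11) for day 3 and 0.866 (0.657 to 1.14) for day 7 all had intervals that include 1. Mfsd2a had the fewest UMIs of the 9 genes, 25, 7, 55 and 32 UMIs, and was 179 CPM (116 to 264) in sham control and 215 CPM (86.5 to 443) on day 1. In the libraries labelled day 3 and day 7 it was 121 CPM (90.8 to 157) and 247 CPM (169 to 348). Its ratios were 1.20 (0.439 to 2.86) on day 1, 0.674 (0.413 to 1.13) for day 3 and 1.38 (0.792 to 2.43) for day 7. None of the 3 left out 1, while the library labelled day 7 stood 2.05-fold (1.28 to 3.22) above that labelled day 3. The day 1 interval includes a change of 1.5-fold in both directions, that of day 3 a loss but no rise of that size, and that of day 7 a rise but no loss.

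**Figure D4:**
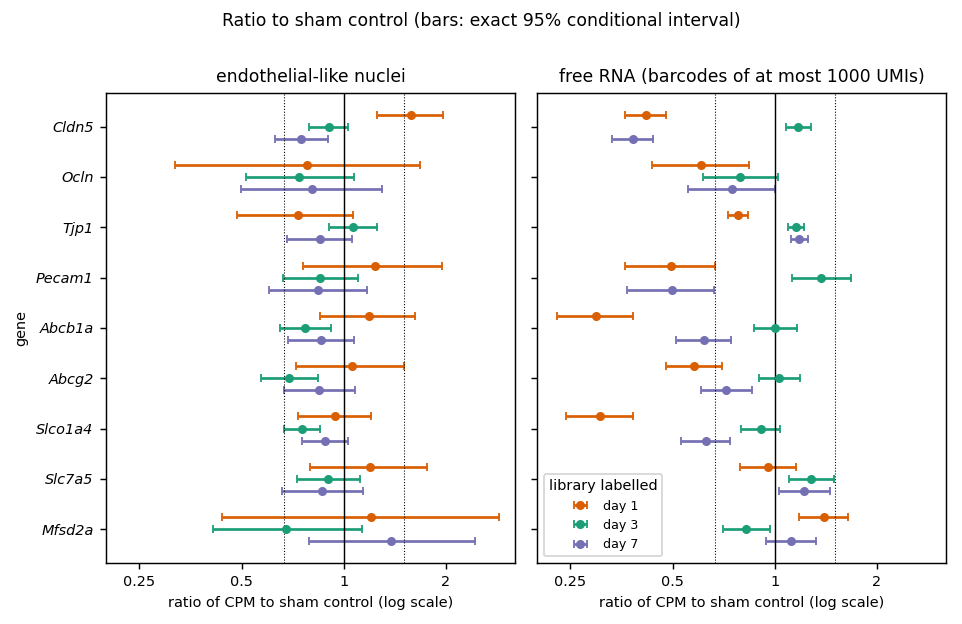
Ratio of CPM to sham control on a log axis for the 9 genes, in endothelial-like nuclei (left) and in free RNA (right), with exact 95% conditional intervals. The solid line marks a ratio of 1 and the dotted lines a change of 1.5-fold. In endothelial-like nuclei 1 of 27 ratios is called, while in free RNA 6 of the 9 genes on day 1 and 4 in the library labelled day 7 are called lower.

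The other genes of the barrier, 81 genes in 7 lists, placed the 9 in their setting. Of the 79 with enough UMIs, 62 were called higher in endothelial-like than in other named nuclei over the 4 libraries together and 4 lower, against 24.3% and 17.0% of all genes. Against sham control, 9 of the 58 tested were called higher and 2 lower on day 1, 2 higher and 11 lower of 68 in the library labelled day 3, and 5 higher and 1 lower of 60 in that labelled day 7. These counts stand beside 5.5% higher and 3.27% lower of all genes on day 1, 6.05% higher and 4.52% lower for day 3 and 3.64% higher and 4.38% lower for day 7. Without nuclei in which any other marker list reached the endothelial one, the 11 lower in the library labelled day 3 became 5. The 5 higher and 1 lower in that labelled day 7 became 3 and 2, and under either exclusion by mural and fibroblast markers 2 were called higher there. Some of the genes named below or in the closing section lost their call under at least 1 of the 3 exclusions. They were Lsr and Slc3a2 on day 1, and Jam3, Esam, Slc2a1 and Cavin2 in the library labelled day 7. In that labelled day 3 they were Cd99l2, Gja4, Lrp1, Fzd6, Axin2, Selp and Slc9a3r2. Under TMM scaling Cav2 lost its day 1 call and Gja4, Lrp1 and Axin2 their day 3 calls. Assigning nuclei by their own marker UMIs turned the balance on day 1 and in the library labelled day 3, with 1 higher and 36 lower on day 1, 21 and 2 in that library, and 30 and 2 in that labelled day 7. With all nuclei their median log2 ratio was 0.21, -0.24 and 0.05. Under TMM scaling the counts became 5 higher and 6 lower on day 1, 3 and 7 in the library labelled day 3, and 5 and 1 in that labelled day 7.

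By list, the counts called higher and lower among the other tight junction genes were 2 and 0 of 5 on day 1, 0 and 0 of 7 for day 3 and 1 and 0 of 6 for day 7. Among adherens junction and adhesion genes they were 2 and 0 of 8 on day 1, 1 and 1 of 9 for day 3 and 1 and 0 of 8 for day 7. Junction genes named by the rule were Esam, an endothelial adhesion molecule, which was 2.701-fold (1.51 to 4.73, 35 and 22 UMIs) on day 1 and 1.94-fold (1.26 to 3.02, 35 and 63 UMIs) in the library labelled day 7, and Lsr, which seals points where 3 cells meet, at 2.60-fold (1.42 to 4.67, 33 and 20 UMIs) on day 1. Gja4, a connexin of arterial endothelium, fell to 0.390-fold (0.165 to 0.949, 11 and 14 UMIs) in the library labelled day 3, where Cd99l2 was 7.05-fold (1.14 to 290.3, 1 and 23 UMIs) over a single sham control UMI. Jam3 in the library labelled day 7 was 4.85-fold (1.004 to 46.1, 2 and 9 UMIs), from few UMIs as well.

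Among ABC efflux pumps other than Abcb1a and Abcg2 the counts were 0 and 1 of 3 on day 1, 0 and 0 of 5 for day 3 and 0 and 0 of 3 for day 7, with Abcc4, a pump of organic anions, at 0.488-fold (0.226 to 0.941, 88 and 10 UMIs) on day 1. Among the other solute carriers they were 3 and 0 of 17 on day 1, 0 and 2 of 18 for day 3 and 1 and 0 of 17 for day 7. Slc2a1, the glucose transporter of the barrier, was 2.44-fold (1.98 to 3.00, 262 and 149 UMIs) on day 1 and 1.51-fold (1.29 to 1.78, 262 and 368 UMIs) in the library labelled day 7. The day 7 value was singled out after it was seen, as it lay outside the rule for naming. Slc3a2, the partner chain of the Slc7a5 carrier, was also called higher on day 1, at 2.04-fold (1.35 to 3.04, 80 and 38 UMIs), and was named here after its value was seen.

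Vesicle and caveola genes, which serve the transcellular route, had counts of 1 and 0 of 8 on day 1, 0 and 3 of 9 for day 3 and 1 and 0 of 8 for day 7. Cav2, a caveolin, was 2.46-fold (1.24 to 4.70, 28 and 16 UMIs) on day 1, and Cavin2 (listed as Sdpr), a coat protein of caveolae, 1.75-fold (1.11 to 2.81, 32 and 52 UMIs) in the library labelled day 7. Lrp1, a receptor for lipoproteins and amyloid, was 0.438-fold (0.210 to 0.937, 14 and 20 UMIs) in the library labelled day 3. Wnt signalling and barrier transcription factors, which set up and hold the barrier state in development and adulthood, had counts of 1 and 1 of 16 on day 1, 0 and 5 of 17 for day 3 and 1 and 1 of 17 for day 7. The Wnt receptor Fzd6 was called lower in all 3 comparisons, at 0.172-fold (0.0203 to 0.654, 50 and 2 UMIs) on day 1, 0.619-fold (0.437 to 0.887, 50 and 101 UMIs) in the library labelled day 3 and 0.431-fold (0.243 to 0.737, 50 and 20 UMIs) in that labelled day 7. In the library labelled day 3, Axin2, a feedback target of Wnt signalling, was 0.532-fold (0.294 to 0.991, 19 and 33 UMIs) and the endothelial factor Sox17 0.539-fold (0.371 to 0.792, 46 and 81 UMIs). Sox18, a relative of Sox17, was 2.38-fold (1.44 to 4.03, 24 and 53 UMIs) in the library labelled day 7. Of the 4 leukocyte adhesion genes, Selp (P-selectin) was called higher in the library labelled day 3, with 18 UMIs against 0 in sham control, which is at least 1.84-fold higher over a floor of 3 UMIs, while the exact interval of the ratio starts at 1.35. Only 1 gene of this list could be tested on day 1 and 1 in the library labelled day 7, and neither was called.

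In neuronal nuclei, the class with the most UMIs, every barrier gene but Tjp1 lay below its level in the free RNA of the same library, so no neuronal expression is read from the other 8. The calls were 2 higher and 1 lower of 9 on day 1, 3 higher and 1 lower in the library labelled day 3, and 0 higher and 2 lower in that labelled day 7. Of all genes, 5.3% higher and 2.26% lower were called on day 1, 2.4% higher and 2.96% lower for day 3 and 3.69% higher and 3.58% lower for day 7. Slc7a5 in neuronal nuclei was 8.15 CPM (6.72 to 9.79) in sham control and 12.8 CPM (10.8 to 15.1) on day 1. The library labelled day 3 gave 8.95 CPM (7.59 to 10.5) and that labelled day 7 gave 9.10 CPM (7.43 to 11.03). The day 1 ratio was 1.57 (1.22 to 2.03), and 1.46 (1.12 to 1.90) without the richest nucleus of each library, under the threshold. Its share of neuronal nuclei was 7.51% and 15.3% at full depth, and 1.07% (0.602% to 1.76%) and 0.745% (0.242% to 1.73%) after thinning, at the level of single UMIs. Tjp1, above its free RNA level in each library, was 434 CPM (423 to 445) in sham control and 429.6 CPM (418 to 442) on day 1. By label, day 3 stood at 433 CPM (424 to 443) and day 7 at 466 CPM (453 to 479), and its ratios of 0.990 (0.953 to 1.03) on day 1, 0.998 (0.965 to 1.03) for day 3 and 1.07 (1.03 to 1.11) for day 7 stayed close to 1.

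Cldn5 in neuronal nuclei was 1.86 CPM (1.21 to 2.72) in sham control and 0.631 CPM (0.254 to 1.30) on day 1. The remaining libraries, labelled day 3 and day 7, were at 3.35 CPM (2.54 to 4.33) and 0.442 CPM (0.143 to 1.03), with ratios of 0.340 (0.124 to 0.803) on day 1, 1.80 (1.12 to 2.98) for day 3 and 0.237 (0.0712 to 0.629) for day 7. In the free RNA of the same libraries, which are the barcodes of at most 1000 UMIs, Cldn5 was 68.9, 28.7, 80.8 and 26.3 CPM. Both the neuronal and the free RNA level were lower on day 1 and in the library labelled day 7 than in the other two. Among the other calls, Slco1a4 stood at 2.25 (1.19 to 4.48) in the library labelled day 3 and Mfsd2a at 0.501 (0.262 to 0.933) there, a call lost without the richest nuclei, and 0.341 (0.135 to 0.764) in that labelled day 7. Pecam1 was called higher in neuronal nuclei on day 1, at 2.44 (1.26 to 4.89), and in the library labelled day 3, at 2.10 (1.13 to 4.10), from 15, 29, 39 and 20 UMIs.

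In astrocyte-like nuclei Tjp1 was 478 CPM (426 to 536) in sham control and 561 CPM (488 to 641) on day 1. In the libraries labelled day 3 and day 7 it was 659.5 CPM (604 to 718) and 729 CPM (649 to 816). Sham control was the lowest and the library labelled day 7 the highest, a ratio of 1.52 (1.29 to 1.79) that was called. In the latter, 36 of the 303 UMIs came from 1 nucleus, and without the richest nucleus of each library, an alternative chosen after seeing the data, the ratio of 1.498 missed the threshold. Slco1a4 was called higher there as well, from 1 to 20 UMIs at a ratio of 29.9 (4.78 to 1238), but in only 3 of 69 nuclei. Other endothelial genes were found in few of these nuclei too, with Cldn5 at 8 UMIs in 1 nucleus, Pecam1 at 3 in 1 and Abcb1a at 7 in 3, against 4, 2 and 3 UMIs in sham control. By their own marker UMIs, 2 of the 69 would be assigned to endothelium and 0 of the sham control ones, and the part of these nuclei in the call was not tested. Without the richest nucleus of each library 10 UMIs against 0 were left and Slco1a4 was still called higher. Slc7a5 was called higher from 10 to 17 UMIs, 10 of them in a single nucleus. The Slc7a5 call ended in that alternative, at 1.19 (0.378 to 3.60). Mfsd2a in astrocyte-like nuclei was 58.0 CPM (40.6 to 80.3) in sham control and 83.8 CPM (57.3 to 118) on day 1. The library labelled day 3 gave 49.1 CPM (34.9 to 67.1) and that labelled day 7 gave 52.9 CPM (33.2 to 80.1), with no call. The calls were 0 of 9 on day 1 and in the library labelled day 3 and 3 higher in that labelled day 7. Of all genes, 4.41% higher and 5.7% lower were called on day 1, 3.36% higher and 5.68% lower for day 3 and 3.88% higher and 5.36% lower for day 7.

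In microglia-like nuclei Tjp1 was called lower than in sham control on day 1 and in the library labelled day 3, but not in that labelled day 7. It was 371 CPM (287 to 472) in sham control and 219 CPM (162 to 291) on day 1. By label, day 3 stood at 223 CPM (179.7 to 274) and day 7 at 305 CPM (238 to 384), and its ratios were 0.591 (0.399 to 0.871) on day 1, 0.601 (0.433 to 0.839) for day 3 and 0.821 (0.579 to 1.17) for day 7, of which the day 1 and day 3 values were called lower. Pecam1 was called higher on day 1 from 1 to 12 UMIs, a ratio of 9.76 (1.44 to 417), with 7 of the 12 in a single nucleus, without which too few UMIs were left for a call. In the library labelled day 3 the Tjp1 level was close to that of its free RNA, 219 CPM. The calls were 1 higher and 1 lower on day 1, 0 and 1 in the library labelled day 3 and 0 in that labelled day 7. Of all genes, 6.7% higher and 7.04% lower were called on day 1, 5.15% higher and 4.1% lower for day 3 and 4.7% higher and 4.06% lower for day 7.

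Oligodendrocyte-like and precursor-like nuclei gave 1 call between them. Mfsd2a was called higher in oligodendrocyte-like nuclei on day 1, at 3.79 (1.27 to 13.6) from 5 and 13 UMIs, beside 4.29% higher and 6.03% lower of all genes. Its level there, 23.7 CPM, lay below that of the same library's free RNA, 33.5 CPM, and the call ended without the richest nucleus of each library, so no expression in this class is read from it. No other of the 9 was called in that class, where the background was 3.93% higher and 3.02% lower in the library labelled day 3 and 3.01% higher and 5.36% lower in that labelled day 7. None was called in precursor-like nuclei, beside 5.18% higher and 3.42% lower on day 1, 4.52% higher and 3.09% lower in the library labelled day 3 and 2.84% higher and 3.48% lower in that labelled day 7. Mixed fibroblast-like and mural-like nuclei had at least 20 nuclei only in sham control and the library labelled day 3, where none of the 9 was called against 5.58% higher and 5.28% lower of all genes. In mixed ependymal-like and choroid-plexus-like nuclei Tjp1 was called lower in the library labelled day 3, at 0.460 (0.244 to 0.816), where 7.71% higher and 8.16% lower of all genes were called and 21 of the 65 sham control UMIs came from a single nucleus. The call held without the richest nuclei, at 0.436 (0.187 to 0.905). Its level there, 109.6 CPM, lay below that of free RNA.

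The barrier genes gave the most calls in free RNA, the RNA of barcodes with at most 1000 UMIs, which holds RNA released in preparation together with shallow nuclei. Of the 9 genes, 6 were called lower on day 1, 0 in the library labelled day 3 and 4 lower in that labelled day 7, and none was called higher. Of all genes tested, 5.86% higher and 3.56% lower were called on day 1, 4.27% higher and 4.77% lower in the library labelled day 3 and 5.55% higher and 3.28% lower in that labelled day 7. The median log2 ratio of the 9 was -0.79, 0.04 and -0.47, beside 0.01, -0.07 and 0.01 for all genes.

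Abcb1a in free RNA was 27.5 CPM (24.5 to 30.8) in sham control and 8.17 CPM (6.48 to 10.2) on day 1. The remaining libraries, labelled day 3 and day 7, were at 27.6 CPM (25.3 to 30.0) and 17.0 CPM (14.7 to 19.7), and its ratios were 0.297 (0.229 to 0.381) on day 1, 1.00 (0.869 to 1.16) for day 3 and 0.619 (0.513 to 0.746) for day 7. Slco1a4 followed the same pattern with 33.8, 10.3, 30.7 and 21.1 CPM, and ratios of 0.305 (0.243 to 0.382) on day 1, 0.908 (0.796 to 1.04) for day 3 and 0.625 (0.528 to 0.739) for day 7. Cldn5 was 68.9 CPM (64.0 to 73.9) in sham control and 28.7 CPM (25.4 to 32.3) on day 1. In the libraries labelled day 3 and day 7 it was 80.8 CPM (76.9 to 85.0) and 26.3 CPM (23.4 to 29.5), with ratios of 0.417 (0.362 to 0.479) on day 1, 1.17 (1.08 to 1.28) for day 3 and 0.382 (0.333 to 0.438) for day 7. For these 3 genes sham control and the library labelled day 3 were high, and day 1 and the library labelled day 7 were low, with intervals that do not overlap between the 2 pairs.

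Pecam1, at 13.02, 6.44, 17.8 and 6.47 CPM, shared this split, with ratios of 0.494 (0.361 to 0.669) on day 1, 1.37 (1.12 to 1.67) for day 3 and 0.497 (0.368 to 0.664) for day 7. Abcg2 was lower on day 1, at 0.580 (0.478 to 0.701), as was Ocln, at 0.606 (0.435 to 0.837), and neither was called later. Tjp1, Slc7a5 and Mfsd2a did not share the split. Tjp1 had ratios of 0.781 (0.730 to 0.836) on day 1, 1.15 (1.096 to 1.22) for day 3 and 1.18 (1.11 to 1.25) for day 7, Slc7a5 of 0.954 (0.790 to 1.15) on day 1, 1.28 (1.099 to 1.49) for day 3 and 1.22 (1.03 to 1.45) for day 7 and Mfsd2a of 1.39 (1.18 to 1.65) on day 1, 0.825 (0.704 to 0.969) for day 3 and 1.11 (0.940 to 1.32) for day 7.

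The 18 endothelial markers had the same 2 high and 2 low libraries in free RNA as Cldn5, Abcb1a, Slco1a4 and Pecam1 in their summed level, with 12 called lower on day 1 and 13 in the library labelled day 7, and summed ratios of 0.513 (0.487 to 0.541), 1.05 (1.01 to 1.09) and 0.544 (0.518 to 0.571) in the order of days. The mural markers stood at 0.649 (0.615 to 0.685), 0.960 (0.921 to 1.00) and 0.740 (0.704 to 0.777), and the neuronal markers at 0.954 (0.947 to 0.961), 1.07 (1.07 to 1.08) and 1.098 (1.09 to 1.11). Endothelial-like nuclei also made up smaller shares of nuclei on day 1 and in the library labelled day 7. The day 1 interval ended at 1.278% and that of sham control began at 1.275%, so the 2 met only at their edges. The interval of the library labelled day 7, 0.830% to 2.04%, overlapped that of sham control widely. No ratio of these shares was computed. By their own marker UMIs, 39 of 1018 nuclei were assigned to endothelium on day 1 and 66 of 2114 in sham control. That share was higher on day 1. Of the nuclei so assigned, 29 on day 1 and 22 in sham control lay in neuronal clusters. The endothelial-like cluster held 6 and 34 of them. The part of the endothelial-like share in the free RNA result was not tested. In free RNA, fewer endothelial cells in the tissue and less RNA per cell cannot be told apart.

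Genes that shared the pattern of a barrier gene were ranked by Pearson's r of log2(CPM + 10) over 27 sums of a class in a library with at least 20 nuclei, among 17020 genes with at least 50 UMIs. The sums share libraries and depth, and endothelial-like sums dominate the range, so the values describe likeness only. Nearest to Cldn5 were Grrp1 (0.99), Itm2a (0.98) and Ly6c1 (0.98). Nearest to Abcb1a were Higd1b (0.98), Apold1 (0.98) and Cdh5 (0.98), among them the pericyte marker Higd1b and the cadherin of endothelial junctions Cdh5. Slco1a4 lay nearest to Paqr5 (0.95), Wfdc1 (0.94) and Foxf2 (0.94), and Pecam1 to Acvrl1 (0.98), Grap (0.97) and Slc38a5 (0.96). Abcg2 lay nearest to Ets1 (0.95), Itgb1 (0.92) and Cnn2 (0.92), Slc7a5 to Fmo2 (0.96), Robo4 (0.96) and She (0.96) and Ocln to Tm4sf1 (0.96), Paqr5 (0.96) and Pltp (0.95). The 2 genes with the smallest endothelial-like share of UMIs had lower values, with Slc16a4 (0.85), Ybx3 (0.84) and Katnbl1 (0.80) for Tjp1 and Nrarp (0.86), Vangl2 (0.85) and S100a16 (0.84) for Mfsd2a. Among the 9 themselves r ran from 0.44 for Ocln with Tjp1 to 0.94 for Cldn5 with Pecam1 and with Slc7a5.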

How the data were processed

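Nuclei from 4 pools of 3 mouse forebrain hemispheres were profiled by droplet single-nucleus RNA sequencing, with 1 library per group. The authors mapped reads with STAR 2.7.3a (STARsolo, whole-gene counting) to GRCm38 and deposited raw UMI counts for 46983 genes and all barcodes. Ambient RNA correction and normalization came later in their work and are not in these files. Strand of counting was not given in the sources used here.

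Nuclei were called here as barcodes with more than 1000 UMIs that differed from free RNA at an FDR of 0.001 (10000 draws), doublets were removed with Scrublet (scanpy 1.11.5), and nuclei were clustered without the 9 genes (Seurat 5.3.0, sctransform 0.4.2, R 4.3.3, 30 components, resolution 0.8). This gave 31 clusters, named from 193 marker genes by thresholds set after the clusters were seen. A marker list scored the mean log2 fold of its 5 best genes, and a cluster was called mixed when the second list scored 3 or more and the first led by less than 2. The endothelial-like cluster, at 7.15 against 4.90 for mural markers and with the mural gene Rgs5 among its leading genes, just missed that. UMIs were summed by class and library and given as CPM with exact Poisson intervals, shares with Clopper-Pearson intervals, and ratios with exact conditional binomial intervals, at 95% (Python 3.11.15, numpy 2.4.6, scipy 1.17.1, pandas 2.3.3, matplotlib 3.10.9). Sums under 3 UMIs were set to 3 in medians. A call needed 10 UMIs over both sums, 1.5-fold and an interval off 1. Days were compared with sham control only in classes with at least 20 nuclei in both libraries, except endothelial-like nuclei and, for the values flagged in the closing section, unnamed nuclei. The steps were tested on simulated data. Alternatives covered the nuclei, the clustering, foreign markers, free RNA subtraction, TMM factors (edgeR 4.0.16), the UMI minimum and the fold.

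Members and lists were chosen with earlier results of these data known. All 9 genes were named, with up to 4 other barrier genes per direction and day by size of ratio, the 3 most similar genes per member, and called members in other classes. Motifs were searched in RefSeq promoter windows. No test across animals was possible.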

Additional observations from a re-analysis of the deposited data

Results flagged for a closer look

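Cldn5 was called in opposite directions in separate classes on day 1, at 1.57 times its sham control level in endothelial-like nuclei and 0.340 times in neuronal nuclei. The former call was lost under TMM, with merged libraries and under each exclusion of nuclei, and turned to -1.55 on the log2 scale under the per-nucleus rule. The neuronal levels, 1.86 and 0.631 CPM, lay below those of free RNA, 68.9 and 28.7 CPM, whose ratio was 0.417 (0.362 to 0.479). In neuronal nuclei its ratio also changed direction between libraries, with 0.340 on day 1, 1.80 in the library labelled day 3 and 0.237 in that labelled day 7. Among the other barrier genes in endothelial-like nuclei, Slc9a3r2, a scaffold protein of membrane carriers, stood at 2.08 on day 1 and 0.617 in the library labelled day 3, and the caveolin Cav2 at 2.46 and 0.547. Slc9a3r2 lost its day 3 call without nuclei in which any other marker list reached the endothelial one, at -0.54 on the log2 scale. Cav2 lost its day 1 call under TMM. Under the per-nucleus rule both were called lower on day 1, at -0.98 and -0.88. That rule gave neither a call in the library labelled day 3, at 0.37 and -0.19. None of these differences between classes or libraries was itself tested, since each group is 1 library. In the 165 nuclei of the cluster that received no name, 16 of them in sham control, which no comparison above used, Slc7a5 had 13 UMIs (52.4 CPM) on day 1 and was at 0 UMIs in sham control, and Slco1a4 in the library labelled day 3 was 6.65 times its sham control level (1.09 to 273), from 1 and 25 UMIs. Of the 25, 18 lay in 1 nucleus, and 7 against 0 were left without the richest nucleus of each library, too few for a call. The leading genes of this cluster were the heat shock genes Hspa1a and Hspa1b, mitochondrial genes and Ttr, a choroid plexus gene.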

How the results depend on the processing

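Each group was 1 library, so no library could be left out. No paired analysis was possible because each group had a single library and the labels give no shared replicate number. Calls rest on counting error alone, and at 6 nuclei the day 1 library bounds a ratio only widely. The excess in endothelial-like over other named nuclei kept the direction of its median in all alternatives that recomputed it. The median log2 ratio in sham control, day 1, day 3 and day 7 was 4.47, 2.71, 5.15 and 5.30 when nuclei were assigned by their own marker UMIs, a rule that took in 22, 29, 39 and 6 nuclei of neuronal clusters. It was 7.14, 6.11 and 6.66 in sham control, day 3 and day 7 without nuclei holding mural and fibroblast marker UMIs above 25% of the endothelial ones, and 7.19, 6.89 and 7.93 after free RNA was subtracted. That subtraction was partial, at most 10.0% of UMIs where 13.1% to 19.9% were estimated as free RNA. Against sham control, the day 1 median reversed to -1.73 under the per-nucleus rule, -0.14 under the strict mural exclusion, -0.11 under TMM, -0.10 as a mean over nuclei and -0.35 without the richest nucleus of each gene. The per-nucleus rule also reversed the day 3 median to 0.55, the day 7 median to 0.89 and Cldn5 on day 1 to -1.55. It called 0 of the 9 genes higher and 8 lower on day 1, 4 higher on day 3 and 7 higher on day 7, and of the 81 other barrier genes 1 higher and 36 lower, 21 and 2, and 30 and 2 on these days. The single day 1 rise became 0 when libraries were merged without integration, under each exclusion of nuclei with markers of other cells, under TMM and at a 2-fold threshold. Genes called lower on day 1 became 2 under the strict mural exclusion and 1 under TMM. On day 3 they became 1 with merged libraries, 1 with doublets kept, 4 under the strict mural exclusion and 3 with no fold threshold. On day 7 they became 2 under the strict mural exclusion, 1 without nuclei in which any other marker list reached the endothelial one, and 1 with no fold threshold. Of the 81 other genes, 5 were called higher on day 1 under the strict mural exclusion, and 5 higher and 6 lower under TMM. On day 3, 1 was called higher with a minimum of 20 UMIs, 5 lower without nuclei with any other marker list, and 7 lower under TMM. On day 7, 2 were called higher without nuclei whose mural or fibroblast markers reached the endothelial ones, 2 under the strict exclusion and 3 without nuclei with any other marker list, with 2 lower in the last. The exclusions of nuclei and the TMM fit of free RNA were chosen after seeing the data. TMM moved log2 ratios in free RNA by at most 0.0520. Outside endothelial-like nuclei, leaving out the richest nucleus of each gene, also chosen after seeing the data, reversed Slco1a4 in unnamed nuclei of the library labelled day 3 to -0.70 on the log2 scale with the floor of 3 UMIs. The cause of these changes was not tested. Thinning to 1000 UMIs lowered most shares by construction.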
